A study of Mus musculus with 7 samples.

Results

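MiR-192-5p, miR-194-5p and miR-215-5p are the main arms of a pair of microRNA clusters, and they were described here in CD8+ T cells of neonatal and adult mouse spleen. The members mmu-miR-192-5p, mmu-miR-194-5p and mmu-miR-215-5p were chosen by name, with their levels in these same libraries already known, so their levels and differences are given as a description, without a p-value. They are 3 of the 1978 mature names in the deposited table, of which 288 passed a filter of at least 10 CPM in at least 2 libraries, where CPM are counts scaled so that every library has the same total. MiR-192-5p and miR-194-5p passed that filter and miR-215-5p did not. The cells came from gBT-I mice, whose T cells carry 1 transgenic receptor, and all groups share that strain. CD8+ cells were sorted by CD44 and CD122 into virtual memory (VM) cells, high for both, which carry memory markers without having met antigen, and true naive (TN) cells, low for both. The groups held 2 neonatal VM, 1 neonatal TN, 2 adult VM and 2 adult TN libraries, so neonatal TN values have no SD, and the labels used here give no animal age in days. Library totals ran from 1577031 to 3278451 estimated counts. No label ties a replicate to an animal or a pool of animals, so their spread, and every p-value, may measure technical variation only. The lymphocyte markers miR-150-5p, miR-142a-5p, miR-142a-3p, miR-181a-5p and miR-155-5p summed to 162425.3 and 171000.2 CPM in neonatal VM and 282830.5 CPM in neonatal TN cells. In adult cells they summed to 339119.1 to 376853.1 CPM (VM) and 495087.9 to 586654.4 CPM (TN). These and later marker sums were scaled by TMM factors, which correct library totals for composition. Lymphocyte markers were thus abundant in every library while their sum differed by group.

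As background, a microRNA pairs with messenger RNAs mainly through its seed, bases 2 to 8 from its 5′ end, and lowers their translation and stability. MiR-192 and miR-215 share a seed and count as a single family, whereas miR-194 has another seed but is made from the same primary transcripts. In human cells the tumour suppressor p53 induces all of them, and miR-192 and miR-215 in turn slow the cell cycle. They are best known from gut, liver and kidney epithelium, where hepatocyte nuclear factors drive them.

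The mature sequences from RefSeq (GRCm38.p6) are shown because the shared seed, and the few bases that differ outside it, decide which values can be told apart. Capitals mark the seed.
miR-192-5p: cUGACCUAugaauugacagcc
miR-215-5p: aUGACCUAugauuugacagac
miR-194-5p: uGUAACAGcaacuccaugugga
MiR-192-5p and miR-215-5p are identical at 18 of 21 positions and differ at C1A, A12U and C20A, with the miR-192-5p base first and positions counted from 1 at the 5′ end. No other mature miRNA in the RefSeq table has the seed of miR-192-5p and miR-215-5p, and none other has that of miR-194-5p.

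The members come from loci on separate chromosomes. Mir194-2 (chr19:6264643-6264728, plus strand) and Mir192 (chr19:6264844-6264932, plus strand) lie 115 bases apart, and in GENCODE M21 neither hairpin overlaps another gene. The nearest gene upstream on their strand is Atg2a, an autophagy gene. Mir194-1 (chr1:185313319-185313385, plus strand) and Mir215 (chr1:185313581-185313692, plus strand) lie 195 bases apart within an intron of Iars2, a mitochondrial isoleucyl-tRNA synthetase gene on the opposite strand. Both also lie within the noncoding gene 2010103J01Rik of their own strand, Mir194-1 in an intron and Mir215 overlapping an exon. The hairpins of the 2 miR-194 loci, with the mature miR-194-5p in capitals, show why reads confined to that arm match both loci.
Mir194-1: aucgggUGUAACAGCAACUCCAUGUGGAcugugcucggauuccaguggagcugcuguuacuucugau
Mir194-2: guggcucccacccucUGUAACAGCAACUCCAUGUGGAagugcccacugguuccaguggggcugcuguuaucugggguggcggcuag

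MiR-192-5p was the abundant member, at a mean of 4776.2 CPM over the 7 libraries (scaled by TMM factors, which correct library totals for composition), and ranked between 22 and 31 among all names in every library. It stood at 4627.2 and 4933.7 CPM in neonatal VM cells and at 6838.2 CPM in the neonatal TN library. Adult VM cells had 4474.3 and 5897.7 CPM, and adult TN cells 3252.9 and 3409.4 CPM. Both adult TN libraries were below all 5 others and the neonatal TN library was above all others. With TMM factors the VM libraries of the 2 ages overlapped. The VM libraries lay apart under library totals, at 5933.9 and 6280.6 CPM in neonatal and 4095.1 and 5203.6 CPM in adult cells. As a share of all counts, miR-192-5p took 0.737% of the neonatal TN library (95% Wilson interval 0.727 to 0.747%), against 0.293% and 0.266% of the adult TN libraries. The interval covers the error of counting and no other, because PCR copies were not marked by molecular identifiers.

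By group mean the order of miR-192-5p was neonatal TN (6838.2 CPM, 1 library), adult VM (5186.0 ± 1006.5 CPM, SD, n = 2), neonatal VM (4780.4 ± 217 CPM, n = 2) and adult TN (3331.2 ± 111 CPM, n = 2). With TMM factors, as used for these means, the adult and neonatal VM libraries overlapped. The neonatal TN library lay above both adult VM ones, by less than the SD of adult VM cells over the higher of them, and adult TN cells lay below neonatal VM cells by more than the SD of either group. Under library totals neonatal VM (6107.2 CPM) stood above adult VM cells (4649.4 CPM) by group mean. These cells were sorted in bulk, so fewer cells with the miRNA and less of it per cell cannot be told apart.

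MiR-194-5p was far scarcer, at a mean of 290 CPM, and varied little. It had 281 and 239 CPM in neonatal VM cells and 312 CPM in the neonatal TN library. Adult VM cells had 261 and 295 CPM, and adult TN cells 344 and 299 CPM. By group mean the order was adult TN (322 ± 32.2 CPM, SD, n = 2), neonatal TN (312 CPM), adult VM (278 ± 23.8 CPM, n = 2) and neonatal VM (260 ± 29.4 CPM, n = 2). With TMM factors, within each age both VM libraries lay below every TN library while the TN libraries of the 2 ages overlapped, as did the VM libraries. Under library totals the subsets overlapped within each age, and the neonatal libraries lay above the adult ones of the same subset. Adult TN libraries then had 310 and 233 CPM against 239 and 260 in adult VM, and neonatal VM libraries 360 and 305 against 337 in neonatal TN. Over the 7 libraries the SD of the log2 CPM of miR-194-5p with TMM factors was 0.171, and only 6 of the 288 tested miRNAs had a lower one, against 61 with a lower SD than the 0.388 of miR-192-5p. The SD between replicates alone, pooled over the 3 groups with replicates, was 0.144 for miR-194-5p and 0.169 for miR-192-5p.

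MiR-215-5p, which shares the miR-192 seed, was near the detection limit. It had 9 and 12 estimated counts in neonatal VM, 12 in neonatal TN, 2.5 and 10 in adult VM and 4 and 4 in adult TN cells. With TMM factors that was 4.45 and 3.14 CPM in neonatal VM and 3.73 CPM in neonatal TN cells. Adult VM cells had 1.21 and 3.46 CPM and adult TN cells 2.16 and 1.71 CPM, so that the neonatal and adult ranges overlapped. Under library totals its ranges lay apart, at 3.99 to 5.71 CPM in neonatal and 1.11 to 3.05 CPM in adult libraries. Its count was between 0.0225% and 0.0962% of that of miR-192-5p in the same library. In adult VM replicate 1 both miR-215-5p (2.5) and miR-192-5p (11114.5) held a fraction of a count, and neither did in another library. Whether some counts of miR-215-5p are reads of miR-192-5p with a few changed bases was not tested.

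**Figure D1:**
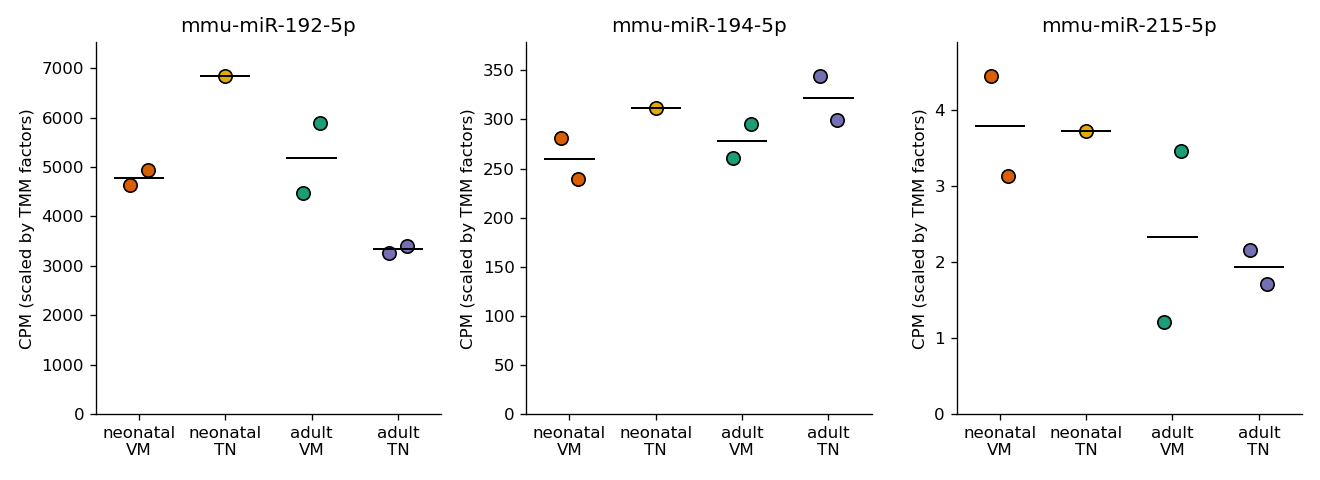
Level of each member in CPM scaled by TMM factors (vertical axes, from 0) in the 4 groups (horizontal axes); each point is 1 library and the line is the group mean. MiR-192-5p was lowest in the adult TN libraries (3252.9 and 3409.4 CPM) and highest in the neonatal TN library (6838.2 CPM), miR-194-5p lay between 239 and 344 CPM, and miR-215-5p stayed at or below 4.45 CPM.

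The opposite arms of the hairpins were almost absent. Summed over the 7 libraries, miR-192-5p had 92387 counts and miR-192-3p had 6, a ratio of 15397.8. MiR-194-5p had 5324 counts, against 33 for miR-194-2-3p, the opposite arm of the chromosome 19 hairpin, and 0 for miR-194-1-3p, that of the chromosome 1 hairpin. MiR-215-3p also had 0 counts, against 54 for miR-215-5p. A count of 0 allows up to between 0.915 and 1.90 CPM per library, so these arms were not detectable at this depth.

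The deposited table gives miR-194-5p a line for each of its precursors, and the paired values were nearly equal and in every library summed to a whole number. In every library the mir-194-2 line was the larger, by 16, 28 and 25 counts in neonatal VM replicates 1 and 2 and neonatal TN, and by 8, 25, 4 and 9 counts in adult VM replicates 1 and 2 and adult TN replicates 1 and 2. That excess was between 0.627% and 3.06% of the sum. The chromosome 19 hairpin, which lies beside Mir192, had the larger line and an opposite arm with counts. The chromosome 1 locus had 54 counts of miR-215-5p in all and none of either opposite arm. From which locus the reads of miR-194-5p came was not tested.

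Neonatal were set against adult TN cells to ask how age alters true naive cells. Differences with age are given throughout as neonatal over adult, and differences by subset as VM over TN. MiR-192-5p was 2.05-fold higher in neonatal TN (6838.2 CPM) than in adult TN cells (3331.2 ± 111 CPM, SD, n = 2), a log2 fold change of 1.04 (SE 0.23), and 73 of 288 tested miRNAs had a larger one. MiR-194-5p had a log2 fold change of -0.04 (SE 0.24), at 312 CPM in neonatal TN and 322 ± 32.2 CPM in adult TN cells. The median over all tested miRNAs was 0.04. In the edgeR quasi-likelihood fit over the whole table, 47.9% of miRNAs passed at a Benjamini-Hochberg adjusted p of 0.05, and 1 of the 2 members fitted did. Nothing is read from the members' count, because they were chosen with these values known.

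Between the VM groups of the 2 ages, miR-192-5p differed with TMM factors by less than the spread of its adult VM replicates. It averaged 4780.4 ± 217 CPM in neonatal VM and 5186.0 ± 1006.5 CPM in adult VM cells (SD, n = 2 each), a log2 fold change of -0.12 (SE 0.19). The sign turned to 0.39 when libraries were scaled by their totals alone, to 0.10 with a filter at 100 CPM and to 0.15 without adult VM replicate 2. MiR-194-5p averaged 260 ± 29.4 CPM in neonatal VM and 278 ± 23.8 CPM in adult VM cells, a log2 fold change of -0.10 (SE 0.20), which became 0.41 under library totals, 0.02 under RLE factors, 0.01 under upper quartile factors and 0.13 with the 100 CPM filter. In this comparison 53.8% of all tested miRNAs passed the edgeR test, and 0 of the 2 members fitted, as in DESeq2 and at an unadjusted p under 0.05.

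Scaling moves with age in these libraries. The TMM factors were 1.078 to 1.282 in the 3 neonatal and 0.7813 to 0.9152 in the 4 adult libraries, and without them the median of all tested miRNAs shifted by 0.36 with age in TN and by 0.51 with age in VM cells on the log2 scale. Set against those shifts, miR-192-5p had a log2 fold change of 1.40 in TN cells and of 0.39 in VM cells under library totals.

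VM were set against TN cells of adult mice to ask which miRNAs mark the subset. MiR-192-5p was 1.56-fold higher in adult VM (5186.0 ± 1006.5 CPM) than in adult TN cells (3331.2 ± 111 CPM, SD, n = 2 each), a log2 fold change of 0.64 (SE 0.19), with no overlap between the libraries. Without adult VM replicate 2 that value was 0.31. MiR-194-5p was not on the same side, with a log2 fold change of -0.21 (SE 0.20), at 278 ± 23.8 CPM in adult VM and 322 ± 32.2 CPM in adult TN cells. Here 39.2% of all tested miRNAs passed the edgeR test, and 1 of the 2 members fitted.

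In neonatal cells the same contrast ran the other way for miR-192-5p. It was at 4627.2 and 4933.7 CPM in neonatal VM cells and at 6838.2 CPM in the neonatal TN library, a log2 fold change of -0.52 (SE 0.23), which was -0.27 under library totals and -0.14 under upper quartile factors. Both VM libraries thus lay below the TN library in neonatal cells, whereas both lay above the TN libraries in adult cells. MiR-194-5p had a log2 fold change of -0.27 (SE 0.24) in neonatal cells, and of 0.11 under upper quartile factors. The edgeR test was passed by 9.72% of all tested miRNAs in this comparison and by 0 of the 2 members fitted, against 0 in DESeq2 and 1 at an unadjusted p under 0.05 in edgeR. The 4 comparisons share libraries, among them the single neonatal TN library, and their values are therefore not independent.

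**Figure D2:**
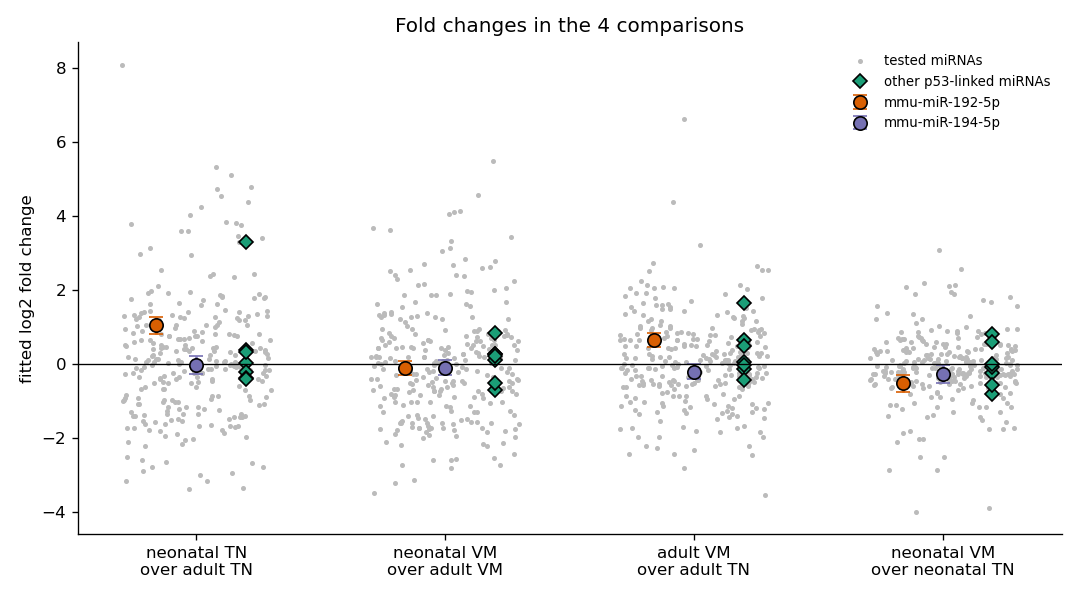
Fitted log2 fold changes (vertical axis) in the 4 comparisons (horizontal axis): grey points are the 288 tested miRNAs, orange and purple circles with SE bars are miR-192-5p and miR-194-5p, and green diamonds are the 7 tested miRNAs of the p53-linked list. MiR-192-5p lay at 1.04, -0.12, 0.64 and -0.52 from left to right, and miR-194-5p between -0.27 and -0.04.

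The ratio of miR-192-5p to miR-194-5p within a library needs no scaling factor, and it set adult TN cells apart. There were 16.5 and 20.6 counts of miR-192-5p per count of miR-194-5p in neonatal VM cells and 21.9 in the neonatal TN library. Adult VM cells had 17.2 and 20.0, and adult TN cells 9.45 and 11.4. All 5 libraries outside adult TN thus lay between 16.5 and 21.9, and the adult TN libraries did not reach that range.

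By comparison, the ratio was 2.11-fold higher in neonatal TN (21.9) than in adult TN cells (10.4 ± 1.39, SD, n = 2), and 1.78-fold higher in adult VM (18.6 ± 2.03, n = 2) than in adult TN cells. It was alike in neonatal VM (18.5 ± 2.93, n = 2) and adult VM cells, with a log2 difference of -0.01, smaller than the spread of either group. Between neonatal VM and neonatal TN cells the log2 difference was -0.25. With 1 library left out, the log2 difference stayed between 0.94 and 1.21 for age in TN cells and between 0.70 and 0.97 for subset in adult cells. The single neonatal TN library could not be left out for age in TN cells. The ratio was chosen after the values were seen and has no test. It compares how both miRNAs differ and does not show that either was constant, and ligation during library preparation favours some miRNAs over others, so its absolute size is not a ratio of molecules.

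**Figure D3:**
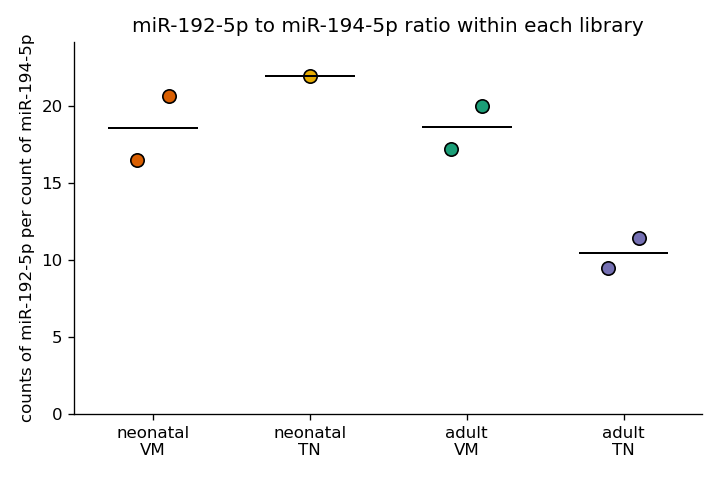
Counts of miR-192-5p per count of miR-194-5p (vertical axis, from 0) in each library of the 4 groups (horizontal axis); points are libraries and lines are group means. The adult TN libraries had 9.45 and 11.4, and the 5 others 16.5 to 21.9.

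**Figure D4:**
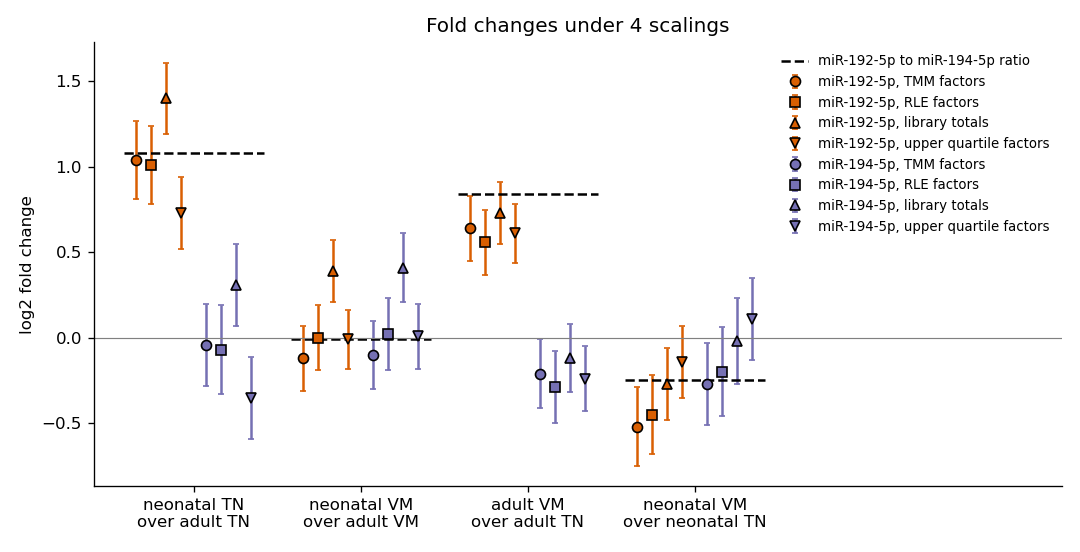
Log2 fold change (vertical axis) of miR-192-5p (orange) and miR-194-5p (purple) in the 4 comparisons (horizontal axis), with SE bars, under TMM factors, RLE factors, library totals and upper quartile factors; the dashed lines give the log2 difference of their ratio, which uses no factor. For age in VM cells both members turned from -0.12 and -0.10 under TMM factors to 0.39 and 0.41 under library totals, while their ratio differed by -0.01.

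Profiles over the 7 libraries were compared by the root mean square (RMS) difference of log2 CPM after each miRNA was centred on its own mean, among 165 other tested miRNAs whose mean reached 50 CPM. The nearest to miR-192-5p was miR-24-3p (RMS 0.131), a miRNA of the miR-23/27/24 clusters. It had 540 and 604 CPM in neonatal VM, 763 in neonatal TN, 454 and 637 in adult VM and 296 and 350 in adult TN cells, so it too was highest in neonatal TN and lowest in adult TN cells. Next came let-7i-5p (RMS 0.183), let-7j (0.188), miR-671-3p (0.254) and miR-17-5p (0.262). Reads of the let-7 family, whose sequences are near-identical, may have been exchanged among its members.

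MiR-194-5p was only the 30th nearest to miR-192-5p (RMS 0.426), although Mir194-2 and Mir192 are neighbours. The nearest to miR-194-5p was miR-23b-3p (RMS 0.121), at 621 and 564 CPM in neonatal VM, 638 in neonatal TN, 510 and 648 in adult VM and 671 and 737 in adult TN cells. It was followed by miR-15b-5p (0.165), miR-1198-5p (0.189), miR-30d-5p (0.209) and miR-425-5p (0.209). These are descriptions over 7 libraries that share their preparation and scaling.

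**Figure D5:**
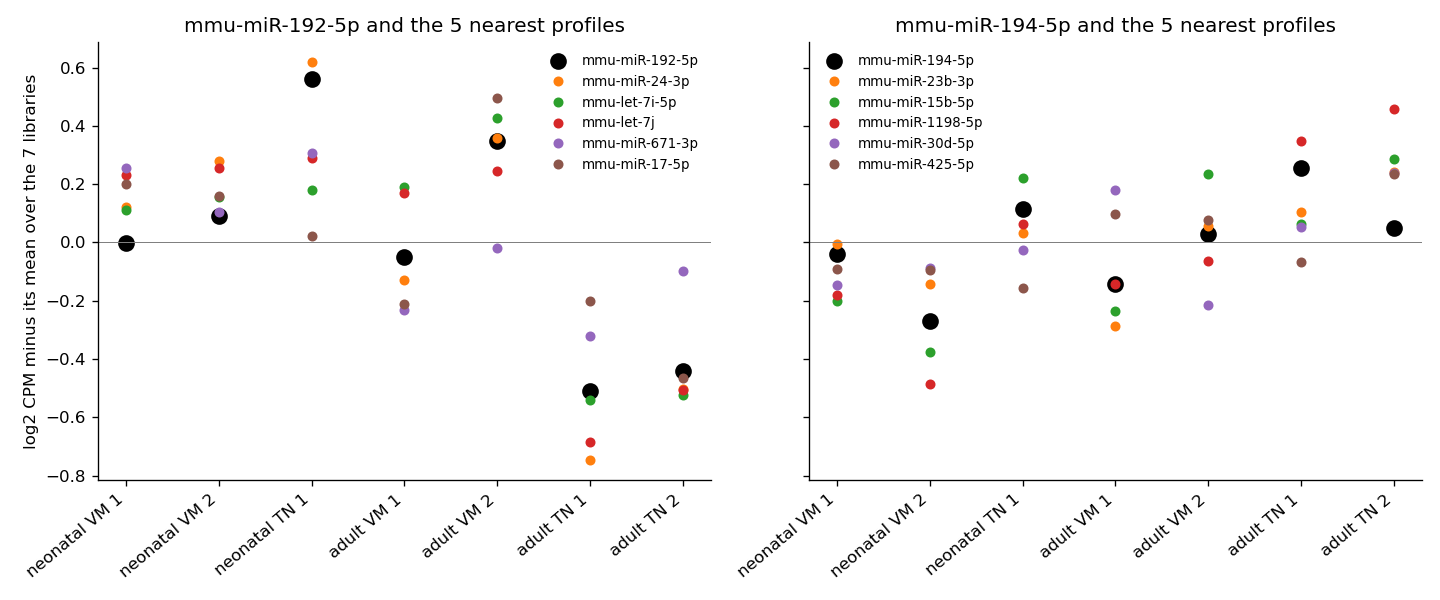
Log2 CPM minus its mean over the 7 libraries (vertical axes) in each library (horizontal axes) for miR-192-5p (left, black) and miR-194-5p (right, black) with the 5 nearest profiles of each in colour. The 2 adult TN libraries were the lowest for miR-192-5p, miR-24-3p, let-7i-5p and let-7j, while miR-194-5p varied less between libraries than miR-192-5p.

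Of the p53-linked miRNAs other than the members, a list of 12 held 7 tested ones, of which miR-141-3p and miR-200c-3p are also epithelial markers. Of the rest, miR-34b-5p and miR-34c-5p had no count, miR-145a-5p had 1 in all, and miR-605-5p was not analysed here. MiR-34a-5p, the best known p53 target among miRNAs, was below the filter, with 3 and 8 counts in neonatal VM, 9 in neonatal TN, 22 and 27 in adult VM and 2 and 2 in adult TN cells. Its adult VM libraries lay above all 5 others, whereas for miR-192-5p the neonatal TN library was the highest.

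With age in TN cells, 1 of the 7 passed the edgeR test, against 47.9% of all tested miRNAs. It was miR-143-3p, which rose to 67.2 CPM in neonatal TN, against 4.32 and 8.99 CPM in adult TN cells (log2 fold change 3.3, SE 0.47, adjusted p = 0.000137), and it is also a marker of stromal cells. With age in VM cells 1 of the 7 passed in edgeR and 2 in DESeq2, against 53.8% of all tested miRNAs in edgeR. By edgeR miR-141-3p was lower in neonatal than adult VM cells (log2 fold change -0.71, SE 0.21, adjusted p = 0.0117). It did not pass under library totals (-0.20, adjusted p = 0.391) or without neonatal VM replicate 1, where the log2 fold change was -0.54. The median of the 7 was 0.03 with age in TN cells and 0.22 with age in VM cells, against 0.04 and -0.08 over all tested miRNAs.

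Between adult subsets 3 of the 7 passed the edgeR test, all as higher in VM cells, against 39.2% of all tested miRNAs, and 2 of the 7 passed in DESeq2. MiR-143-3p (log2 fold change 1.64, SE 0.44, adjusted p = 0.0121) did not pass without adult TN replicate 1 or 2 (adjusted p = 0.138 and 0.0601). MiR-141-3p (0.65, SE 0.21, adjusted p = 0.0257) did not pass without any 1 of adult VM replicate 2, both adult TN and both neonatal VM libraries (adjusted p between 0.0566 and 0.206), nor with the largest precursor value (0.0536). MiR-15a-5p (0.49, SE 0.18, adjusted p = 0.0496) was at the threshold and missed it under 7 of the 8 other settings with all libraries, among them DESeq2 (adjusted p = 0.0704), with a range over all alternatives of 0.0524 to 0.299 where it missed. In neonatal cells 1 of the 7 passed the edgeR test, against 9.72% of all tested miRNAs, and 2 passed in DESeq2. The edgeR call was miR-15a-5p again, at 1822.6 and 1828.4 CPM in neonatal VM and 1032.1 CPM in neonatal TN cells (log2 fold change 0.82, SE 0.23, adjusted p = 0.0403), though not with the replicate block (0.0839) or without either adult TN or either neonatal VM library. MiR-16-5p, miR-107-3p, miR-22-3p and miR-200c-3p did not pass in edgeR with TMM factors and all libraries in any of the 4 comparisons, but each passed in at least 1 comparison under another setting. In DESeq2 miR-22-3p passed as higher in neonatal VM than neonatal TN cells (log2 fold change 0.66, adjusted p = 0.0167) and miR-16-5p as higher in neonatal VM than adult VM cells (0.38, adjusted p = 0.034). MiR-107-3p passed under library totals as higher in neonatal than adult cells, both TN (0.74, adjusted p = 0.0171) and VM (0.79, adjusted p = 0.00441). MiR-200c-3p passed as lower in adult VM than adult TN cells only without adult VM replicate 2 (-1.25), which left 1 adult VM library. The list's medians were 0.05 between adult and -0.09 between neonatal subsets, against 0.09 and -0.11 over all tested miRNAs.

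Since miR-192-5p is abundant in epithelia, other epithelial, liver and gut miRNAs were set beside it. Of 9 such markers, 7 were tested, and 6 of these passed the edgeR test as higher in adult VM than adult TN cells, where miR-192-5p was higher too, and where 39.2% of all tested miRNAs passed, 68 of 288 as higher. With age 3 of the 7 passed as lower in neonatal VM cells, against 53.8% of all tested miRNAs in either direction, and 2 as higher in neonatal TN cells, against 47.9%. Between neonatal subsets 0 of the 7 passed, against 9.72% (1 at an unadjusted p under 0.05, and 0 in DESeq2). Their summed level was 1023.5 and 1073.8 CPM in neonatal VM, 909 in neonatal TN, 1627.1 to 1643.8 in adult VM and 765 to 776 in adult TN cells. In the neonatal TN library, where miR-192-5p was highest, that sum was below both neonatal VM libraries. Among the 7, miR-205-5p was highest in neonatal TN (24.9 CPM) and lowest in adult TN cells (3.24 and 0.428 CPM), as miR-192-5p was. It had 15.3 and 18.3 CPM in neonatal VM and 16.5 and 6.91 CPM in adult VM cells. The other tested markers each peaked in a library of another group. MiR-122-5p, the defining liver miRNA, was at 0 in 6 of the 7 libraries and at 2 counts in adult TN replicate 1, and miR-375-3p, a marker of endocrine and gut epithelium, reached at most 5.29 CPM. The part of epithelial cells in the level of miR-192-5p was not tested.

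The erythroid markers, nearly all of it miR-486a-5p, summed to 80.0 and 92.5 CPM in neonatal VM, 230 in neonatal TN, 250 to 298 in adult VM and 124 to 164 in adult TN cells. MiR-486a-5p, the 1 tested marker among them, passed as lower in neonatal VM than neonatal TN cells (log2 fold change -1.43, adjusted p = 0.00492) and as higher in adult VM than adult TN cells (0.93, adjusted p = 0.00862) in the edgeR test. Its largest difference was with age in VM cells, lower in neonatal VM than adult VM cells (-1.73, adjusted p = 7.7e-05), where miR-192-5p had -0.12, and with age in TN cells it had 0.63 (adjusted p = 0.0738), where miR-192-5p had 1.04. As for miR-192-5p, neonatal VM was below neonatal TN and adult VM above adult TN cells, and miR-451a, of red cell precursors, had 9.65 CPM in neonatal TN and between 2.14 and 5.93 CPM in the other libraries. The myeloid markers miR-223-3p and miR-223-5p summed to at most 15.9 CPM, in adult VM cells. The stromal and endothelial markers reached 72.1 to 83.1 CPM in neonatal VM, 102 in neonatal TN, 32.6 to 51.5 in adult VM and 18.9 to 33.0 in adult TN cells, with miR-145a-5p at 0 in 6 of the 7 libraries. Of the 3 tested ones, miR-143-3p passed as higher in neonatal than adult TN cells and in adult VM than adult TN cells. MiR-126a-3p passed as higher in neonatal than adult VM cells. Of the 5 lymphocyte markers, 1 passed as higher and 2 as lower in neonatal than adult TN cells, and 1 and 3 in neonatal than adult VM cells. By the same edgeR test, 3 passed as higher and 2 as lower in adult VM than adult TN cells, and 0 and 1 in neonatal VM than neonatal TN cells. Over all tested miRNAs the shares that passed in those comparisons were 47.9%, 53.8%, 39.2% and 9.72%. Whether other cell types contributed to the members' values was not tested.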

How the data were processed

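RNA of sorted CD8+ T cells was size-selected and sequenced as TruSeq small RNA libraries, per the labels' protocols. The authors deposited estimated counts per mature arm and precursor, on mm10 per the submitters' processing notes. Which aligner and counter were used is not given in the sources used here. Counts were summed per mature name and rounded, and 84.0% of nonzero sums lay within 0.02 of a whole number. The 288 miRNAs reaching 10 CPM in 2 or more libraries were scaled by TMM factors. They were fitted by the quasi-likelihood method of edgeR 4.0.16, under R 4.3.3, with robust dispersions, a cell means model with 3 residual degrees of freedom and Benjamini-Hochberg adjustment at 0.05 over all tested miRNAs. The lone neonatal TN library was thereby assumed to vary like the others. DESeq2 1.42.0 was an alternative. The method was tested on simulated data. Named miRNAs were the members, their other arms, the tested miRNAs of a p53-linked and of 5 marker lists, and the 5 nearest profiles of each member with a mean of at least 50 CPM (prior count 2). The members and lists were chosen with earlier results of these data known. Sequences are those of RefSeq, which held all 7 member and opposite arms, and host genes those of GENCODE M21, both on GRCm38. Figures were drawn with matplotlib 3.10.9.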

Additional observations from a re-analysis of the deposited data

Results flagged for a closer look

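MiR-192-5p had a log2 fold change of -0.52 between neonatal VM and neonatal TN cells and of 0.64 between adult VM and adult TN cells, with the libraries of each pair lying apart in opposite directions. The same kind of opposition, lower in neonatal VM and higher in adult VM cells with no overlap, was seen for 35 of 288 tested miRNAs (12.2%). MiR-143-3p had -0.82 in neonatal and 1.64 in adult cells. With age, miR-22-3p had 0.22 in VM and -0.42 in TN cells, miR-15a-5p 0.11 in VM and -0.23 in TN cells, and miR-141-3p -0.71 in VM and 0.03 in TN cells, and 11.5% of tested miRNAs lay apart in opposite directions with age. The 2 fold changes of each miRNA were not tested against each other, and 1 of each pair rests on the 1 neonatal TN library.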

How the results depend on the processing

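The single neonatal TN library could not be left out of the comparisons that use it, so every setting for them rests on it. Within that limit, the direction of the miR-192-5p difference between neonatal and adult TN cells held in every setting run, with log2 fold changes of 1.40 under library totals, 0.73 under upper quartile factors, 0.86 without a filter and 0.88 to 1.0 with 1 other library left out. For subset in adult cells it was 0.31 to 0.79 with 1 library left out, and for subset in neonatal cells -0.27 under library totals, -0.14 under upper quartile factors and -0.55 to -0.39 with 1 library left out. For age in VM cells it reversed to 0.39 under library totals and 0.10 with the 100 CPM filter, and ran from -0.31 to 0.15 with 1 library left out. MiR-194-5p with age in TN cells reversed to 0.31 under library totals and was -0.35 under upper quartile factors, -0.22 without a filter and -0.26 to -0.06 with 1 library left out. With age in VM cells it reversed to 0.41 under library totals and 0.13 with the 100 CPM filter (-0.19 to 0.05 with 1 library left out). Between adult subsets it was -0.36 with the 100 CPM filter (-0.43 to -0.16), and between neonatal subsets -0.02 under library totals and 0.11 under upper quartile factors (-0.30 to -0.09). The log2 difference of the miR-192-5p to miR-194-5p ratio ran, with 1 library left out, from 0.94 to 1.21 and -0.17 to 0.15 with age in TN and VM cells, and from 0.70 to 0.97 and -0.41 to -0.09 between adult and neonatal subsets. The cause of these moves was not tested.

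The edgeR calls numbered 138 and 155 with age in TN and VM cells and 113 and 28 between adult and neonatal subsets. They were 69 and 93 for age with the 100 CPM filter, under which 153 miRNAs were tested, and 52 between neonatal subsets both under upper quartile factors and without a filter. With 1 library left out they ran from 83 to 179, 106 to 170, 23 to 142 and 16 to 77. Calls as higher and lower in neonatal than adult TN cells were 76 and 62, against 106 and 38 under library totals and 56 and 79 under upper quartile factors. In neonatal against adult VM cells they were 66 and 89, against 117 and 49 under library totals. Between adult subsets they were 68 and 45, against 79 and 35 under library totals, and between neonatal subsets 9 and 19, against 21 and 14 under library totals and 38 and 14 under upper quartile factors. For the 7 tested p53-linked miRNAs, 10 calls were lost and 19 gained over the settings with all libraries, and 18 lost and 6 gained with 1 library left out. The differences between replicates were weakly correlated between groups (Pearson's r 0.0188, 0.137 and -0.158 over 288 miRNAs). With so few libraries this cannot show whether the replicate numbers pair them. With the number as a replicate block the calls were 127, 148, 117 and 25 and miR-192-5p had 1.13, -0.11, 0.63 and -0.61. The depth limits statements on miR-215-5p and the opposite arms.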
